A study of Monodelphis domestica with 6 samples.

Results

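The genes described here regulate the G1 phase of the cell cycle and its exit into S phase: the D-type cyclins, the kinase CDK6, the E-type cyclins and the inhibitors of cyclin-dependent kinases (CDKs). They were chosen by gene symbol, and of the 10 symbols listed, 9 had an entry among the 35665 genes of the deposited files: CCND1, CCND2, CCND3, CCNE1, CCNE2, CDK6, CDKN1A, CDKN1B and CDKN2C. CDKN1C was not analysed here. The libraries came from the grey short-tailed opossum, Monodelphis domestica, and compared neonatal skin fibroblasts (neoSFs) with the induced pluripotent stem cells made from them (monoiPSCs). There were 2 neoSF libraries, 1 from each of the inbred wild-type strains FD2M1 and LSD1, and 4 monoiPSC libraries, 1 from each strain at passage 15 (P15) and at passage 25 (P25).

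The neoSFs were primary cultures of skin from female pups, grown in serum medium. The monoiPSCs had been transfected as fibroblasts with plasmids carrying human OCT4, SOX2, NANOG, KLF4, LIN28 and cMYC, and the study also names the plasmid pCE-mp53DD among those used, a construct generally known for carrying a dominant-negative mouse p53. They were kept without feeder cells in medium with LIF, bFGF and a ROCK inhibitor. Each strain was represented by 1 neoSF culture and 1 iPSC line, so strain and line cannot be told apart, and the 4 monoiPSC libraries are 2 lines sampled at 2 passages. The neoSF libraries were sequenced in-house with short single-end reads and the monoiPSC libraries by a service with longer paired-end reads, so cell type and sequencing platform cannot be told apart in any comparison of the 2 cell types.

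D-type cyclins are made when mitogens reach a cell, bind the kinases CDK4 and CDK6, and start the phosphorylation of the retinoblastoma protein, which releases E2F transcription factors. E2F targets include the E-type cyclins, which activate CDK2 and carry the cell into S phase, together with much of the machinery of DNA replication. The Cip/Kip proteins (CDKN1A, known as p21, and CDKN1B, known as p27) bind many cyclin-CDK complexes, while the INK4 proteins (CDKN2C, known as p18, is one) bind only CDK4 and CDK6. Fibroblasts depend on mitogens for this step, whereas pluripotent cells of placental mammals are known for a short G1 phase.

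Levels are given as the normalized read count (NRC), the count of a gene after the authors' scaling between libraries. Total counts were 14278794 and 16982978 in the neoSFs and 28684754 to 35564261 in the monoiPSCs, so that 3 counts corresponded to an NRC of 5.85 and 4.75 in the neoSFs and of 1.55 to 1.88 in the monoiPSCs. The cell types matched their labels: 9 fibroblast markers summed to an NRC of 1963990 and 2522990 in the neoSFs and of 6540 to 11534 in the monoiPSCs, and 9 pluripotency markers summed to 225 and 146 in the neoSFs, with 6 of the 9 at or under 3 counts in each, and to 11268.5 to 15473 in the monoiPSCs. The marker sums of melanocytes and skeletal muscle were also higher in the monoiPSCs, though not every marker was. Of 6 melanocyte markers 4 were in the files, with a summed NRC of 33.5 and 24.8 in the neoSFs and of 4382 to 15316 in the monoiPSCs, where nearly all of it was DCT. MLANA was lower in the monoiPSCs (mean NRC 20.1 in the neoSFs and 7.65 in the monoiPSCs), and TYR and TYRP1 overlapped between the groups. The sum of 4 skeletal muscle markers was 1180 and 334 in the neoSFs and 1341 to 10354 in the monoiPSCs. Of these markers only MYOG lay wholly above the neoSFs, while MYOD1, MYF5 and DES overlapped between the groups. The part of melanocyte-like or muscle-like cells in the results was not tested. The remaining marker sums stayed low in all 6 libraries, at 51.5 to 217 for 4 endothelial markers, 25.2 to 41.8 for 3 blood markers and 0 to 6.83 for the 1 keratinocyte marker of 4 that was in the files.

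A gene was called differentially expressed (DE) when its p in edgeR's quasi-likelihood test, after Benjamini-Hochberg adjustment, did not exceed 0.05 and its level differed by 2-fold or more. All 9 genes passed the filter on low values, 8 of them through both groups and CDKN2C through the neoSFs alone. CDKN2C therefore could not lie wholly above in the monoiPSCs, and the counts and the median given below include it. In the monoiPSCs 3 of the 9 were DE and higher (CCND1, CCNE2 and CDKN1B), 4 were DE and lower (CCND3, CCNE1, CDK6 and CDKN1A), and 2 were not DE (CCND2 and CDKN2C). Across all 13072 genes tested, 45.9% were DE, 24.3% higher and 21.6% lower, and 66.4% had an unadjusted p under 0.05, so calls were common between these cell types. Of the DE genes 52.9% were higher, or 71.3% with total-count scaling, which raised the median of all genes by 0.52. The 4 monoiPSC libraries did not overlap the 2 neoSF libraries in any of the 9 genes, with 3 wholly above and 6 wholly below. This held for 73.2% of all genes tested, 36.1% above and 37.1% below. Each of the 3 families with several genes changed in opposite directions within itself: CCND1 rose while CCND3 fell, CCNE2 rose while CCNE1 fell, and CDKN1B rose while CDKN1A fell. The median log2 fold change of the 9 genes was -1.09, beside 0.08 over all genes tested. The files hold no transcript lengths, so levels are compared between libraries for 1 gene at a time and not between genes. In these bulk samples a smaller share of cells expressing a gene cannot be told apart from less RNA per cell, and the share of cells in each phase of the cycle was not measured.

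**Figure D1:**
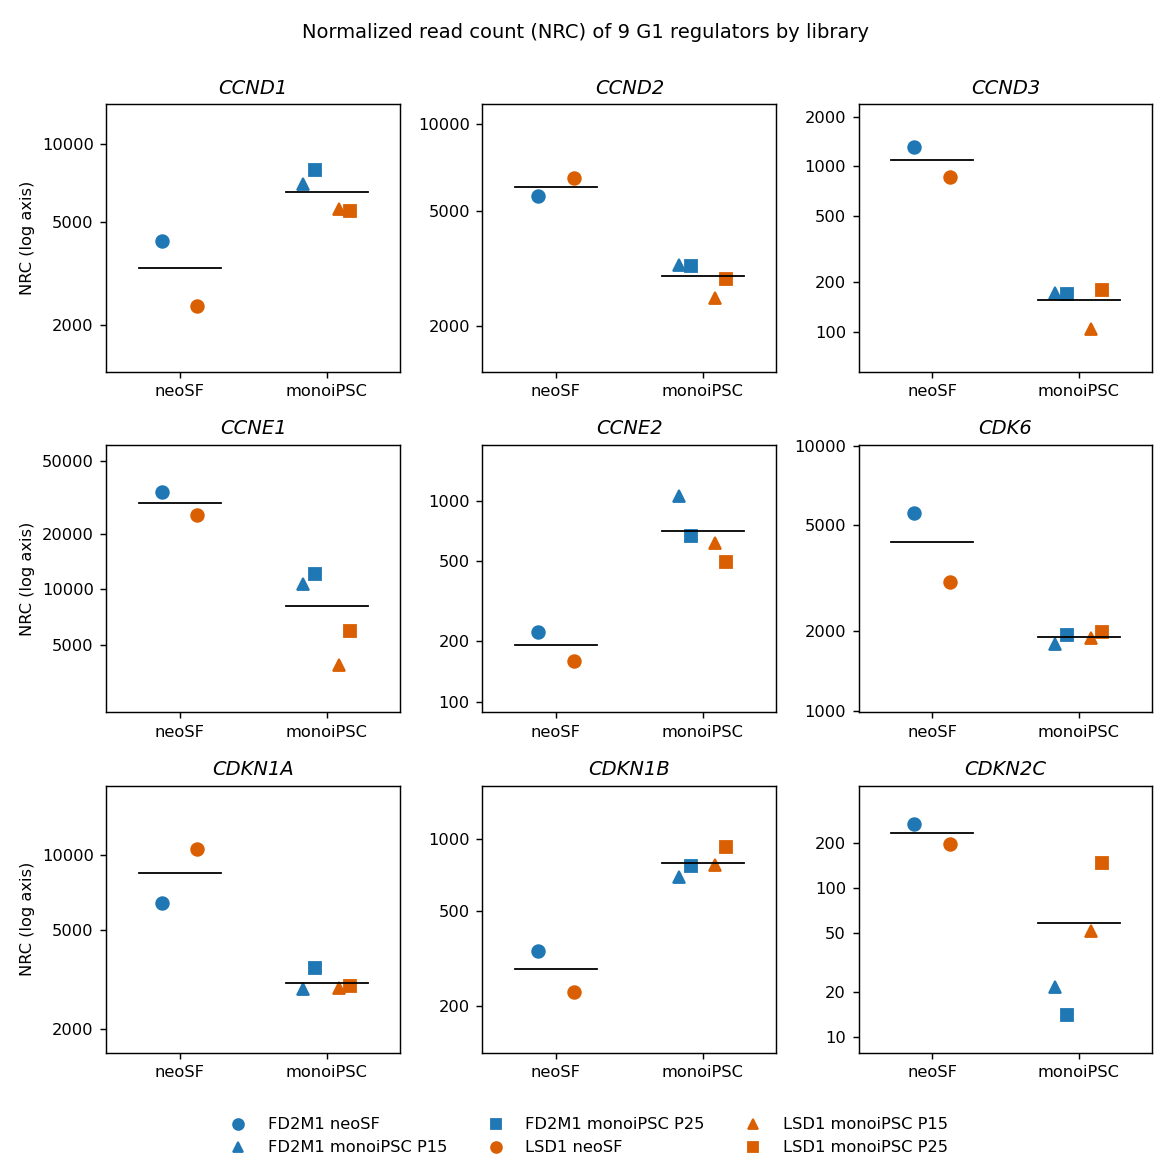
NRC (log axis, a different range in each panel) of the 9 genes in each library, by cell type; colour marks the strain, shape the cell type and passage, and the horizontal line the group mean. In every panel the 4 monoiPSC libraries lie wholly above (CCND1, CCNE2, CDKN1B) or wholly below (the other genes) the 2 neoSF libraries, and CDKN2C has the widest spread among the monoiPSCs.

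CCND1 (gene ID 100013257, chromosome 5 of the MonDom5 assembly) encodes cyclin D1, the D-type cyclin most closely tied to mitogen signalling. Its NRC was 4226 in FD2M1 and 2368 in LSD1 neoSFs. In the monoiPSCs it was 6981 in FD2M1 P15, 5582 in LSD1 P15, 7904 in FD2M1 P25 and 5491 in LSD1 P25. All monoiPSC values lay above both neoSF values, and the FD2M1 library was the higher of the pair in the neoSFs and at each passage. The means were 3297 ± 1314 (SD, n = 2) and 6489 ± 1164 (SD, n = 4), and CCND1 rose by 1.07 on the log2 scale (SE 0.28, 95% interval 0.42 to 1.73; edgeR's quasi-likelihood test, Benjamini-Hochberg adjusted p = 0.0119). The call was lost without the LSD1 neoSF library (log2 fold change 0.72, adjusted p = 0.0658 in edgeR), and without FD2M1 P25 the change was under 2-fold (0.97).

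CCND2 (100016259, chromosome 8) encodes cyclin D2, which pairs with the same kinases. Its NRC was 5646 in FD2M1 and 6491 in LSD1 neoSFs, and 3241, 2508, 3236 and 2905 in FD2M1 P15, LSD1 P15, FD2M1 P25 and LSD1 P25 monoiPSCs. Both neoSF libraries were higher than each monoiPSC library. The means were 6069 ± 598 (SD, n = 2) and 2972 ± 347 (SD, n = 4), and the log2 fold change was -0.93 (SE 0.16, 95% interval -1.31 to -0.56; edgeR adjusted p = 0.00181). This difference passed the limit on p but not that on size, and the gene was DE with limma (-1.03) and without the FD2M1 neoSF library (-1.04).

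CCND3 (100027538, chromosome 2) encodes cyclin D3, the D-type cyclin known for high levels in cells that are leaving the cycle to differentiate and in lymphoid cells. In edgeR it had the largest log2 fold change of the 9 genes in either direction. Its NRC was 1319 and 864 in the FD2M1 and LSD1 neoSFs and 172, 103, 168 and 180 in FD2M1 P15, LSD1 P15, FD2M1 P25 and LSD1 P25 monoiPSCs. The groups lay far apart, and 3 of the 4 monoiPSC values were close together with LSD1 P15 below them. From a mean of 1091 ± 321 (SD, n = 2) to one of 156 ± 35.2 (SD, n = 4), CCND3 fell by 2.71 on the log2 scale (SE 0.28, 95% interval -3.36 to -2.07; edgeR adjusted p = 0.000178).

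The summed NRC of the 3 D-type cyclins was 10457 ± 1037 (SD, n = 2) in the neoSFs and 9617.5 ± 1481 (SD, n = 4) in the monoiPSCs, and here the groups overlapped, with ranges of 9724 to 11191 and of 8193 to 11308. The make-up of that sum differed. Among the D-type cyclin counts, CCND1 made up 37.8% in FD2M1 and 24.4% in LSD1 neoSFs and between 64.0% and 69.9% in the monoiPSCs. CCND2 went the other way, from 50.5% and 66.8% to 28.6% to 33.9%, so that CCND2 held the largest share of counts in both neoSF libraries and CCND1 in all 4 monoiPSC libraries. The share of CCND3 was 11.8% and 8.89% in the neoSFs and 1.26% to 2.09% in the monoiPSCs. Neither the sum nor the shares are per length. Since the make-up differed, the overlap of the sums does not show that total D-type cyclin RNA was unchanged. Of the shares only the shift between libraries can be read, and they do not depend on how the libraries were scaled.

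**Figure D2:**
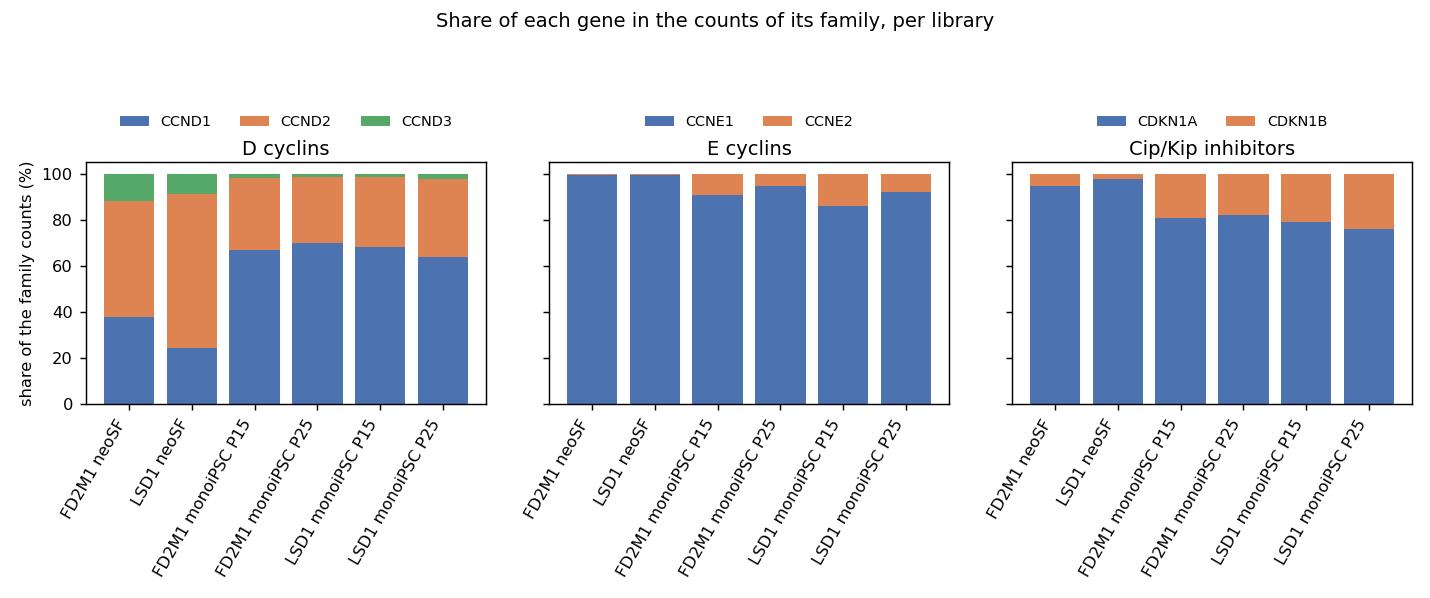
Share (%) of each gene in the counts of its family in each library, for the D-type cyclins, the E-type cyclins and the Cip/Kip inhibitors, from counts not corrected for transcript length. CCND1 rises from 24.4% and 37.8% in the neoSFs to 64.0% or more in the monoiPSCs, and CCNE2 and CDKN1B take a larger share of their pairs in every monoiPSC library.

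CDK6 (100021675, chromosome 8) encodes the kinase partner of the D-type cyclins. CDK4, its close relative, had no entry and was not analysed here. The NRC of CDK6 was 5580 in FD2M1 and 3056 in LSD1 neoSFs. In FD2M1 P15, LSD1 P15, FD2M1 P25 and LSD1 P25 monoiPSCs it was 1783, 1881, 1938 and 1977. The neoSF libraries were both higher but differed from each other by more than the monoiPSC libraries did. The means were 4318 ± 1785 (SD, n = 2) and 1895 ± 84.2 (SD, n = 4), and CDK6 fell by 1.09 on the log2 scale (SE 0.22, 95% interval -1.61 to -0.57; edgeR's quasi-likelihood test, Benjamini-Hochberg adjusted p = 0.00402). This call depended on the scaling and on 1 library: the log2 fold change was -0.56 with total-count scaling (edgeR adjusted p = 0.0504), -0.98 with upper-quartile scaling and -0.60 without the FD2M1 neoSF library. Within the monoiPSCs CDK6 was the steadiest of the 9 genes, with a coefficient of variation of 4.44% beside a median of 17.2% over all genes.

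CCNE1 (100014623, chromosome 1) encodes cyclin E1, which activates CDK2 at the end of G1. Its NRC was 34139.9 in FD2M1 and 25410 in LSD1 neoSFs. In the monoiPSCs it was 10762 in FD2M1 P15, 3853 in LSD1 P15, 12117.5 in FD2M1 P25 and 5904 in LSD1 P25. Every monoiPSC value was below both neoSF values, and at each passage the FD2M1 line was more than 2-fold above the LSD1 line. From 29775 ± 6173 (SD, n = 2) to 8159 ± 3919 (SD, n = 4), CCNE1 fell by 1.77 on the log2 scale (SE 0.43, 95% interval -2.77 to -0.77; edgeR adjusted p = 0.00873).

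CCNE2 (100022654, chromosome 3) encodes cyclin E2, which acts on the same kinase and is itself an E2F target. Its NRC was 222 in FD2M1 and 159.7 in LSD1 neoSFs, and 1055, 616, 669.5 and 497 in FD2M1 P15, LSD1 P15, FD2M1 P25 and LSD1 P25 monoiPSCs. The lowest monoiPSC value, that of LSD1 P25, was still more than 2-fold above the higher neoSF value. From 191 ± 44.0 (SD, n = 2) to 709 ± 242 (SD, n = 4), CCNE2 rose by 1.99 on the log2 scale (SE 0.36, 95% interval 1.15 to 2.83; edgeR adjusted p = 0.00228). Among the E-type cyclin counts, CCNE2 made up 0.646% in FD2M1 and 0.625% in LSD1 neoSFs and between 5.24% and 13.8% in the monoiPSCs, and CCNE1 remained the larger share in every library. The summed NRC of the E-type cyclins, again not per length, followed CCNE1, at 29966 ± 6217 (SD, n = 2) in the neoSFs and 8869 ± 4062 (SD, n = 4) in the monoiPSCs.

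CDKN1A (100029103, chromosome 2) encodes p21, an inhibitor whose gene is a main target of the tumour suppressor p53. Its NRC was 6418 in FD2M1 and 10552 in LSD1 neoSFs and 2899.5, 2925, 3511 and 2983 in FD2M1 P15, LSD1 P15, FD2M1 P25 and LSD1 P25 monoiPSCs. The groups did not overlap, and 3 of the monoiPSC values were nearly equal with FD2M1 P25 above them. From 8485 ± 2923 (SD, n = 2) to 3079.7 ± 290 (SD, n = 4), CDKN1A fell by 1.37 on the log2 scale (SE 0.21, 95% interval -1.86 to -0.87; edgeR adjusted p = 0.00115). The change was under 2-fold with total-count scaling (-0.85) and without the LSD1 neoSF library (-0.96). Whether the pCE-mp53DD plasmid was still present in the monoiPSCs was not measured here.

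CDKN1B (100014923, chromosome 8) encodes p27, whose protein is controlled largely by its destruction. Its NRC was 339.6 in FD2M1 and 230.4 in LSD1 neoSFs, and 694, 775, 773 and 926 in FD2M1 P15, LSD1 P15, FD2M1 P25 and LSD1 P25 monoiPSCs. All 4 monoiPSC values were at least 2-fold above the higher neoSF value. From 285 ± 77.2 (SD, n = 2) to 792 ± 97.4 (SD, n = 4), CDKN1B rose by 1.58 on the log2 scale (SE 0.23, 95% interval 1.04 to 2.11; edgeR adjusted p = 0.00085). CDKN1B thus made up 18.0% to 23.7% of the counts of this pair in the monoiPSCs, against 5.03% and 2.14% in the FD2M1 and LSD1 neoSFs. The summed NRC of the pair, again not per length, was 8770 ± 2846 (SD, n = 2) in the neoSFs and 3872 ± 305 (SD, n = 4) in the monoiPSCs.

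CDKN2C (100020812, chromosome 2) encodes p18, an INK4 inhibitor of the D-type cyclin kinases with a known place in muscle and neuronal differentiation. Its NRC was 269.7 in FD2M1 and 197 in LSD1 neoSFs. In the monoiPSCs it was 21.6 in FD2M1 P15, 51.5 in LSD1 P15, 14.2 in FD2M1 P25 and 147 in LSD1 P25. The neoSF values were the higher ones, but the monoiPSC libraries spread over 10.4-fold, with both LSD1 libraries above both FD2M1 libraries. The means were 234 ± 51.2 (SD, n = 2) and 58.6 ± 61.1 (SD, n = 4), and the log2 fold change was -1.89 (SE 0.83, 95% interval -3.83 to 0.04; edgeR's quasi-likelihood test, Benjamini-Hochberg adjusted p = 0.0806). CDKN2C passed the filter through the neoSFs alone, where it was high, which favours a lower value in the monoiPSCs. The gene was not DE and its interval includes 0. It was DE with strain as a block (-2.53, edgeR adjusted p = 0.0279), with DESeq2 (-1.95, adjusted p = 0.0342), with limma (-2.56, adjusted p = 0.0343) and without LSD1 P25 (-2.91, edgeR adjusted p = 0.00565).

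The order of CDKN2C over the 4 monoiPSC libraries was also the order of the summed NRC of the skeletal muscle markers MYOD1, MYOG, MYF5 and DES. That sum was 1341 in FD2M1 P25, 2202 in FD2M1 P15, 5006 in LSD1 P15 and 10354 in LSD1 P25. In the neoSFs, where CDKN2C was highest, the muscle sum was 1180 in FD2M1 and 334 in LSD1. Of the 4 markers MYOG made up most of the sum in LSD1 P15 (NRC 4135) and LSD1 P25 (5549), and DES added 4213 in LSD1 P25. MYOG and DES each ran in the order of CDKN2C, but the other markers did not. MYOD1 was 35.1 in FD2M1 P25, 103 in FD2M1 P15, 99.4 in LSD1 P15 and 591 in LSD1 P25. MYF5 was highest in FD2M1 P15 (8.94) and lowest in LSD1 P25 (1.03). This comparison was chosen after the values were seen, it covers 4 libraries of 2 lines, and its part in the spread of CDKN2C was not tested.

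**Figure D3:**
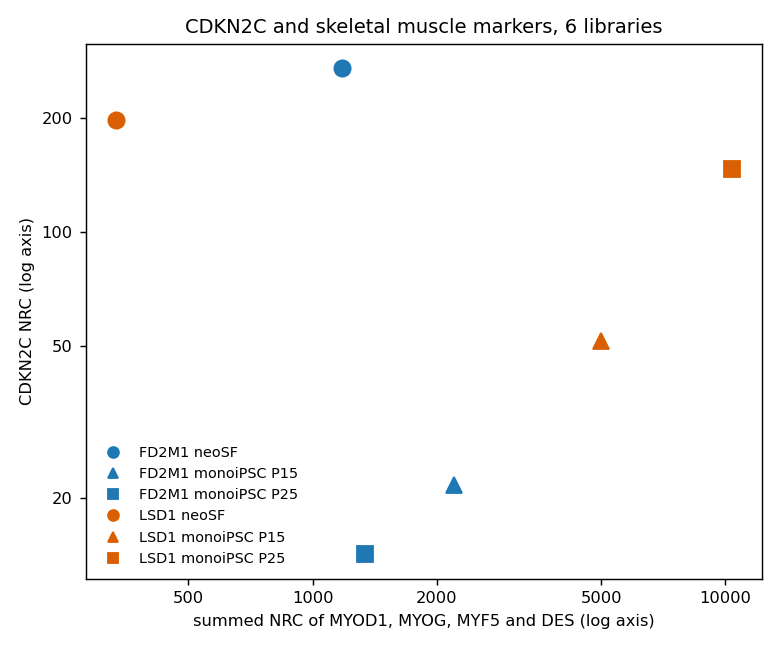
NRC of CDKN2C against the summed NRC of MYOD1, MYOG, MYF5 and DES in each library (log axes); colour marks the strain and shape the cell type and passage. Among the 4 monoiPSC libraries both values run in the same order, from FD2M1 P25 (14.2 and 1341) to LSD1 P25 (147 and 10354), while the 2 neoSF libraries have the highest CDKN2C and the lowest muscle sums.

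For a test of single values, exact permutation of the 6 libraries between the groups (two-sided, 15 splits) gave p = 0.133 for CDKN2C and p = 0.0667 for each of the other 8 genes, which is the smallest p these 15 splits allow. The splits count the 2 passages of a line as separate units, so these p-values overstate the replication of the 2 lines. The sign of the change held for all 9 genes when each monoiPSC library was set against the neoSF library of its own strain, as it did for 79.5% of all genes tested, with each neoSF library serving as reference for 2 monoiPSC libraries. For CDKN2C the filter favoured that sign. The log2 difference in NRC against the neoSFs of the same strain ranged from -2.27 to -3.06 for CCND3, from 1.59 to 2.25 for CCNE2 and from -0.43 to -4.25 for CDKN2C. The size differed by strain for several genes. CDK6 was lower by 1.65 and 1.53 in the FD2M1 monoiPSCs and by 0.70 and 0.63 in the LSD1 monoiPSCs, following the higher CDK6 level of the FD2M1 neoSFs. CDKN1A was lower by 1.15 and 0.87 in FD2M1 and by 1.85 and 1.82 in LSD1, where the neoSFs had the higher level. In an interaction test added after the data were seen, with 1 neoSF library per strain, the LSD1 change minus the FD2M1 change was 0.91 for CDK6 (SE 0.26, edgeR adjusted p = 0.373), -0.85 for CDKN1A (SE 0.30, edgeR adjusted p = 0.464) and 2.89 for CDKN2C (SE 1.00, edgeR adjusted p = 0.458). None of the 9 genes passed that test, which called 11 of 13072 genes (0.0841%) and gave an unadjusted p under 0.05 for 1193 (9.13%).

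**Figure D4:**
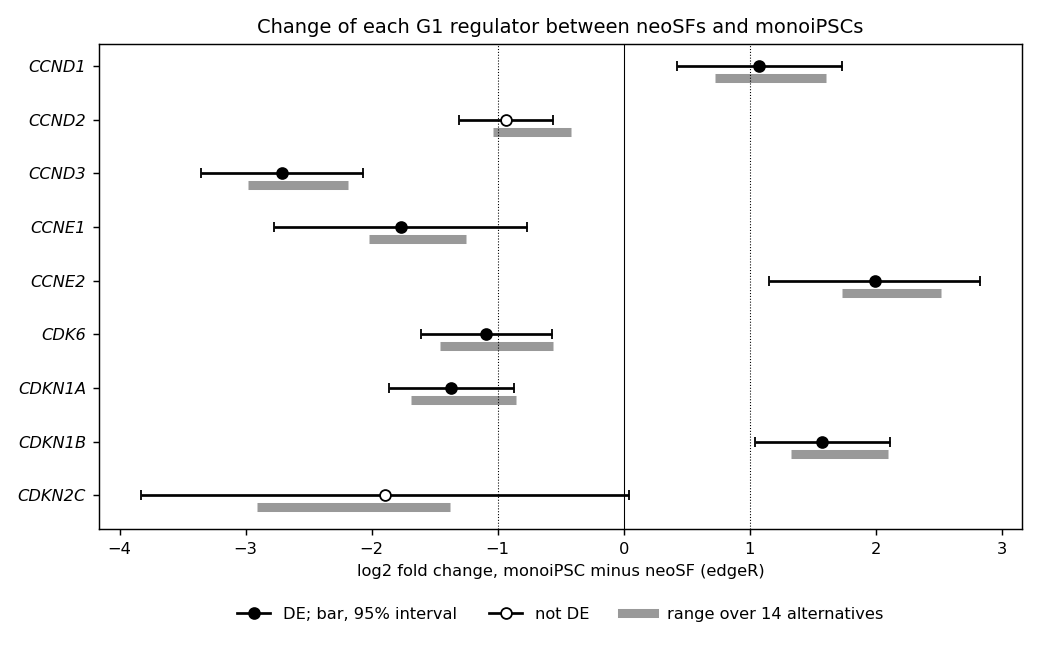
Log2 fold change of each gene, monoiPSC against neoSF, from edgeR with its 95% interval (points and bars; filled for DE, open for not DE), the range over the alternative settings (grey) and dotted lines at a 2-fold change. CCND3 lies lowest at -2.71 and CCNE2 highest at 1.99, and no grey range crosses 0.

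Within the monoiPSCs the lines and passages were compared with each other. Between passage 25 and passage 15, with the line as a covariate, edgeR called 0 of 12252 genes DE (0.0%), while 1145 genes (9.35%) had an unadjusted p under 0.05, DESeq2 called 115 and limma 0. The 8 genes tested here gave no call. CCNE2 had the largest difference, a log2 fold change of -0.50 (SE 0.18, edgeR adjusted p = 0.509), being lower at passage 25 in both lines. CCNE1 differed by 0.38 (SE 0.16, edgeR adjusted p = 0.541) and was higher at passage 25 in both lines. The other 6 differed by 0.06 to 0.36.

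Between the lines, with passage as a covariate, edgeR likewise called 0 of 12252 genes (0.0%), with 1736 (14.2%) at an unadjusted p under 0.05, 192 called by DESeq2 and 0 by limma. CCNE1 had the largest difference of the 8 genes: LSD1 minus FD2M1 was -1.26 on the log2 scale (SE 0.16, 95% interval -1.65 to -0.87). Its edgeR adjusted p was 0.130, and DESeq2 called it (-1.25, adjusted p = 1.34e-06). The interval from edgeR leaves a 2-fold difference inside it, and the coefficient of variation of CCNE1 in the monoiPSCs, 48.0%, was at or above that of 93.9% of these 12252 genes. CCNE2 differed by -0.60 (edgeR adjusted p = 0.255) and CCND1 by -0.42 (edgeR adjusted p = 0.299), both lower in LSD1. CDKN2C was left out of these tests because FD2M1 P25 was under the limit on NRC. Fitted without that filter, it was 2.31 higher in LSD1 on the log2 scale (SE 0.60, 95% interval 0.85 to 3.77, edgeR adjusted p = 0.270). Its coefficient of variation of 104% was at or above that of 99.6% of the 12252 genes that passed the filter. That set leaves out CDKN2C itself and other genes with low values, so the rank is not one among genes of its level.

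The genes around these regulators were read from lists of known members. Among the cyclins, kinases and phosphatases that act with or after the G1 cyclins, 13 genes were tested, but CCNA1 and CDC25C passed the filter through the monoiPSCs alone, where they were high, and so could only be higher there. Of the 11 that reached the limit on NRC in both cell types, 7 were DE and higher in the monoiPSCs and 0 lower, with a median log2 fold change of 3.00 beside 0.02 for all 10979 genes that did so. Among those 10979 genes, 2069 were DE and higher and 2168 lower. CCNA2, the S-phase cyclin, rose by 4.00 (SE 0.33, edgeR adjusted p = 7.6e-05), and CDK1, the mitotic kinase, by 4.08 (SE 0.32, edgeR adjusted p = 5.99e-05). The mitotic cyclins CCNB1 (4.42) and CCNB3 (4.86) rose as well. The lowest values of the list were those of CCNH (0.06, edgeR adjusted p = 0.83) and MNAT1 (0.30, edgeR adjusted p = 0.167), the partners of CDK7 in the CDK-activating kinase, and neither was DE. CCNA1 was at or under 3 counts in both neoSF libraries, and its mean NRC in the monoiPSCs was at least 9.86-fold higher than that limit. CDK2, CDK4 and CDC25B were not analysed here, and CDK3 did not pass the filter.

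Of the 19 genes of the retinoblastoma and E2F families and their complexes, 18 reached the limit on NRC in both cell types, and 7 of them were DE and higher and 1 lower, with a median of 0.63. Over all 19 the share called was 47.4%, near the 45.9% of all genes tested. The atypical member E2F8 (3.25) rose, as did E2F1 (1.79) and TFDP1 (2.35), the dimer partner of the E2Fs. The remaining gene, the activator E2F2, passed the filter through the monoiPSCs alone, with an NRC of 20.5 and 7.73 in the neoSFs and of 182 to 236 in the monoiPSCs. RBL2, the pocket protein p130 of resting cells, fell by 1.01 (SE 0.16, edgeR adjusted p = 0.00137). RB1 itself had a log2 fold change of 0.29 (edgeR adjusted p = 0.126) and its relative RBL1 one of -0.45 (edgeR adjusted p = 0.154). Of 24 tested E2F target genes of DNA replication and the G1/S transition, 24 were DE and higher and 0 lower, with a median of 2.66. Over all genes tested, 24.3% were DE and higher. They ran from MCM10 (1.20) and DBF4 (1.34) to CDC45 (3.83) and ORC1 (3.92), all of which act at replication origins. Between 22 and 24 of them were DE and higher under the alternative settings. This list leaves out the E-type cyclins, which are E2F targets too and changed in opposite directions (CCNE2 1.99, CCNE1 -1.77).

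Of the 4 other CDK inhibitors listed, 1 was DE and higher (CDKN3) and 1 lower (CDKN2A), with a median of 0.23. The share called, 50% of the list, was near the 45.9% of all genes tested. CDKN2A, the locus of p16 and ARF, had an NRC of 2672 and 2465 in the neoSFs and of 312, 227, 323 and 555 in FD2M1 P15, LSD1 P15, FD2M1 P25 and LSD1 P25 monoiPSCs, and fell by 2.76 on the log2 scale (SE 0.32, edgeR adjusted p = 0.000295). CDKN2B, which encodes p15, overlapped between the groups, with 417 and 1063 in the neoSFs and 278, 122, 498.5 and 887 in the monoiPSCs in the same order (log2 fold change -0.64, edgeR adjusted p = 0.456). CDKN2D, which encodes p19, was 116 and 218 in the neoSFs and 275, 266, 248 and 558 in the monoiPSCs, all above both neoSF values (log2 fold change 1.10, SE 0.45, edgeR adjusted p = 0.0658). In each of these 3 genes and in CDKN2C the highest of the 4 monoiPSC values was that of LSD1 P25, an order noticed after the values were seen and not tested. CDKN3, a phosphatase that acts on CDKs, rose by 2.05 (SE 0.25, edgeR adjusted p = 0.000421).

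Of 17 genes for the proteolysis of G1 regulators, 6 were DE and higher and 1 lower, with a median of 0.45, which puts 41.2% of the list among the DE genes beside 45.9% of all genes. CKS1B, the cofactor that brings p27 to its ubiquitin ligase, rose by 3.72 and CDC20, an activator of the anaphase-promoting complex, by 3.07. FBXO4, an F-box protein linked to cyclin D1, fell by 1.36, and CUL4B, a cullin, had a log2 fold change of -0.20. Of 15 tested genes of the p53 axis, 3 were higher and 4 lower, with a median of 0.01, and the share called, 46.7%, was near that of all genes (45.9%). Those farthest apart were PLK3 (2.43) and GADD45A (1.82), which rose, and GADD45B (-2.86) and SESN2 (-1.51), which fell. All of them are known stress-response genes. Of 21 mitogen-response and growth-arrest genes, 3 were higher and 8 lower, with a median of -0.46 and a share called of 52.4%, also near that of all genes. KLF4, a growth-arrest factor that is also one of the reprogramming genes, fell by 4.81, and the immediate-early gene FOS fell by 4.49, while FOXM1 (3.05) and MYCL (2.72), which drive proliferation, rose. The split of the last 2 lists depended on scaling: with total-count scaling the p53 axis had 5 higher and 1 lower, and the mitogen list had 5 higher and 4 lower. Of 10 other cyclins, most of them outside the cell cycle, 3 were DE and higher and 0 lower, with a median of 0.62. The share called was 30.0%, beside 45.9% of all genes. CCNF (4.03) and CCNT2 (3.72) rose, while CCNT1 (-0.09) and CCNK (0.16) had the lowest values of that list.

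**Figure D5:**
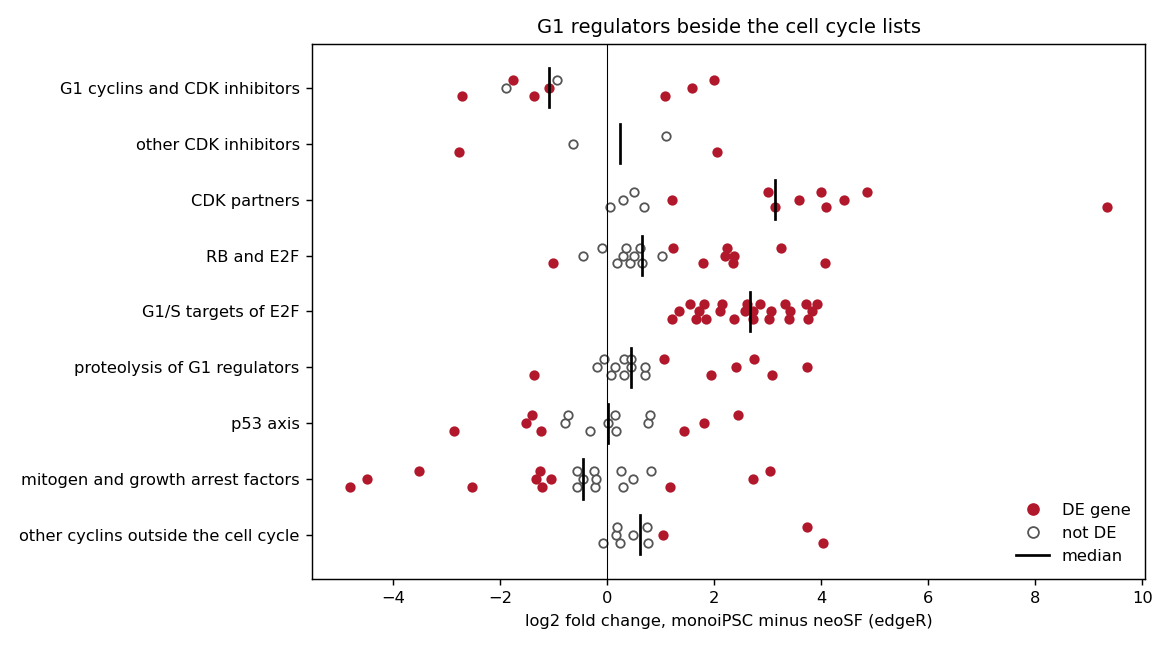
Log2 fold change, monoiPSC against neoSF, of each tested gene of the lists around the G1 regulators (red, DE; open, not DE; black line, the list's median). All 24 replication and G1/S genes lie above 1, whereas the p53 axis is spread around a median of 0.01. CCNA1, the highest point among the CDK partners, is at or under 3 counts in the neoSFs, so its fitted value is no bound. CCNA1, CDC25C and E2F2 passed the filter through the monoiPSCs alone, so the medians drawn for their lists include genes that could only be higher. CDKN2C passed it through the neoSFs alone, and the median drawn for its list includes it.

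Similarity of pattern over the 6 libraries was measured by the root mean square difference of centred log2 NRC. Genes whose only symbol is a LOC number were left out of the search for the nearest genes. Of the other tested genes, the 2 most like each regulator are given. For CCNE2 they were ERCC6L (0.100), a mitotic helicase, and PCNA (0.149), the sliding clamp of DNA replication. For CCND1 they were XPO1 (0.069) and NAMPT (0.078), for CCND2 DCUN1D3 (0.060) and GFPT1 (0.062), for CCND3 FOXRED2 (0.144) and PODNL1 (0.151), and for CDK6 CLDND1 (0.092) and SKIL (0.127). CDKN1A was nearest to EVI5 (0.097) and NR1D2 (0.110), and CDKN1B to AFMID (0.069) and TNK2 (0.110). For CCNE1 they were EVPL (0.137) and GAREM1 (0.280). CDKN2C had the least close neighbours of the 9 genes, S100A16 (0.393) and MYL4 (0.400), a myosin light chain of muscle. Many genes separate the 2 cell types in this way: from 49 genes for CDKN2C to 1415 for CDKN1B had a correlation over 0.95 with the regulator across the 6 libraries.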

How the data were processed

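RNA of 2 neoSF and 4 monoiPSC libraries was sequenced. The study's methods describe poly(A) enrichment for the neoSF libraries and do not describe the preparation of the monoiPSC libraries. According to the study's methods, the authors aligned reads to MonDom5 in StrandNGS and quantified RefSeq genes. The deposited estimated counts are not whole numbers (86.8% of those above 0, tolerance 1e-06) and were rounded here. The deposited log2 values are the authors' DESeq-normalized counts, with values under 1 listed as 0, and NRC is 2 to that power. The methods name both a stranded technology and a kit for the neoSFs that keeps no strand, so overlapping antisense transcripts cannot be told apart. Lines that name no gene (2 per table) were left out.

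Genes that reached an NRC of 20 throughout at least 1 of the cell types were tested with edgeR 4.0.16 (R 4.3.3, TMM scaling, quasi-likelihood test, Benjamini-Hochberg adjustment over all genes tested). The SE is the log2 fold change divided by the square root of F. Passage and line were compared within the monoiPSCs, each with the other as a covariate. Nothing states that libraries came from separate cultures, so p-values measure the spread between these libraries. Each line derives from neoSFs of its own strain, which pairs the samples by origin; deviations of the monoiPSC libraries correlated with those of the neoSFs of their strain at r = -0.02 to 0.08. Alternatives were DESeq2 1.42.0, limma 3.58.1 on the log2 values, other scalings, no filter, passages summed, a strain block and each library left out. On simulated data for the comparison of the cell types, with 200 genes changed 4-fold, edgeR recovered 153 with 7 false calls. There DESeq2 recovered 172 with 41 false calls and limma 154 with 9. The simulated libraries were independent and few of the 13072 genes changed, whereas 6000 were DE in the data. These rates therefore need not hold for the data.

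The genes, the lists around them and the marker lists were chosen with earlier results of these data known. Any gene of the lists of CDK partners, other CDK inhibitors and RB and E2F genes could be named, and of each other list the 2 highest and 2 lowest log2 fold changes are named. Counting intervals cover counting error only.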

Additional observations from a re-analysis of the deposited data

Results flagged for a closer look

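In the 4 monoiPSC libraries 2 of the 9 genes had 1 library apart from the other 3 by Dixon's criterion, which divides the gap to the nearest library by the range of the group. For CCND3 the ratio was 0.854, with LSD1 P15 low at an NRC of 103 beside 168 to 180 in the others. For CDKN1A it was 0.864, with FD2M1 P25 high at 3511 beside 2899.5 to 2983. By chance about 1 in 20 groups of 4 would pass, and 9 genes were examined. Without these libraries both genes stayed DE and lower in the monoiPSCs (edgeR).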

How the results depend on the processing

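Over 14 alternatives no log2 fold change of the 9 genes between the cell types changed sign. CCND3 (-2.98 to -2.19), CCNE1 (-2.02 to -1.25), CCNE2 (1.73 to 2.52) and CDKN1B (1.32 to 2.10) kept their calls in all of them, and the strain block changed the call of CDKN2C alone. The range was 0.72 to 1.60 for CCND1, -1.04 to -0.42 for CCND2, -1.46 to -0.56 for CDK6, -1.69 to -0.85 for CDKN1A and -2.91 to -1.38 for CDKN2C. Total-count scaling moved the median log2 fold change of all genes from 0.08 up by 0.52 and the number of DE genes that were higher from 3176 to 4786 (lower, from 2824 to 1931). The cause of the lost and gained calls was not tested.

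Within the monoiPSCs the number of DE genes depended on the tool and on single libraries. For passage edgeR called 0 genes, DESeq2 115, and leaving out 1 library gave 0 to 215 (8 without LSD1 P25, 215 without FD2M1 P25). For the lines edgeR called 0, DESeq2 192, and leaving out 1 library gave 0 to 50 (7 without FD2M1 P25, 50 without LSD1 P15). With a library left out these fits had no covariate, since 3 libraries leave no residual degree of freedom beside one. In such fits passage and line are partly mixed, so each estimate carries some of the other difference. A change of sign in them therefore does not show that a passage or line difference reversed. The passage estimate was below 0 for CCND1 (-0.051 and -0.22), CCND2 (-0.069 and -0.0069) and CCNE1 (-0.25 and -0.33), without LSD1 P15 or FD2M1 P25. Yet CCNE1 was higher at passage 25 in both lines. The line estimate changed sign for CCND3 (0.084, without LSD1 P15) and CDKN1A (0.035, without FD2M1 P25).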
